A study of Mus musculus with 8 samples.

Results

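The 9 complement genes C1qa, C1qb, C1qc, C1ra, C4b, C3, Cfb, Serping1 and C5ar1 were followed in mouse 4T1-FLuc tumors after saline or after the dual-payload conjugate mAb-DXd/IMQ. They were taken by gene symbol from a table of 54532 genes to cover the classical and alternative pathways, a regulator and a receptor, and all 9 had enough counts to be tested. The 4T1-FLuc line is a luciferase-marked mouse triple-negative breast cancer line, here grown under the skin of female BALB/cJ mice that were 6 weeks old at implantation and had an intact immune system. The conjugate is a humanized antibody to CD276 that carries DXd, a topoisomerase I inhibitor, and IMQ, an agonist of Toll-like receptors that sense RNA. Treated mice received 16 mg/kg into the tail vein every 4 days for 5 courses, control mice received saline, and 4 tumors per group, each from a different mouse, were sequenced as whole tissue at the endpoint. Single-payload conjugates and the unconjugated antibody were not analysed here, so the effects of the antibody, DXd and IMQ cannot be told apart. The antibody was raised against the human protein. The paper's methods set the endpoint by tumor volume in the control group, while its results name an ulceration criterion there. The model is thus limited to a single late time, at which the paper reports much smaller tumors after mAb-DXd/IMQ than after saline.

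Complement is a cascade of plasma and tissue proteins that tags targets and recruits phagocytes. In the classical pathway, C1q binds antibody or altered cell surfaces, the protease C1r activates C1s, which cleaves C4 and C2, and the resulting convertase cleaves C3; the alternative pathway amplifies C3 cleavage through factor B. C1 inhibitor restrains C1r and C1s, and C5a, released further down, acts on its receptor on myeloid cells. Much of the plasma protein is made by the liver, while C1q is made largely by macrophages, also within tumors.

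The total count per tumor ran from 45019927 to 69582375 in the saline group and from 34591912 to 51625237 in the mAb-DXd/IMQ group. Levels are given as CPM, a gene's counts scaled to a common library size after TMM normalization. A gene with 3 counts, the limit that a count of 0 allows, would stand at 0.0431 to 0.0867 CPM before TMM scaling, counting error alone being considered. The tissue carried its labelled identity: the epithelial keratin Krt18 was at 589 to 971 CPM across the 8 tumors, and the 5 hepatocyte markers together reached at most 0.599 CPM, with Alb the most abundant of them and Fga at 0 counts. Divided by gene length, the saline means were 450.2 ± 173 CPM per kb for C1qa, 297 ± 133 for C1qb, 187 ± 82.7 for C1qc and 145 ± 53.3 for C3 (SD, n = 4), with neighbors overlapping in mean ± SD. In saline tumor 1 the order differed, with C3 at 219 CPM per kb above C1qb at 143 and C1qc at 90.1 CPM per kb. C1ra at 26.7 ± 6.03, Serping1 at 24.1 ± 3.18, C4b at 17.3 ± 4.91 and C5ar1 at 14.6 ± 5.78 CPM per kb followed, again with neighbors among these 4 overlapping, and Cfb was far lower at 0.409 ± 0.117 CPM per kb. In the mAb-DXd/IMQ tumors C1qa stood at 426 ± 85.7, C1qb at 251 ± 50.4, C1qc at 146 (118 to 177) and C3 at 59.6 ± 20.5 CPM per kb (SD or range, n = 4), with no overlap in mean ± SD between neighbors. Serping1 at 32.9 ± 7.59 CPM per kb was there above C1ra at 20.6 ± 3.73, followed by C4b at 16.2 ± 3.91, C5ar1 at 11.7 ± 1.64 and Cfb at 0.774 ± 0.449 CPM per kb; mean ± SD overlapped between C1ra and C4b and between C4b and C5ar1.

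Of the 9 genes, 0 passed both thresholds of edgeR's quasi-likelihood test, an adjusted p under 0.05 over all 18511 tested genes and an absolute log2 fold change above 0.58. Across all genes 197 passed, 1.06% of those tested, with 101 higher (0.546%) and 96 lower (0.519%) in the mAb-DXd/IMQ group; with upper-quartile scaling that split was 145 to 73. The total was 111, 10 and 11 without saline tumors 2, 3 and 4 and 76, 88 and 12 without mAb-DXd/IMQ tumors 2, 3 and 4. At an unadjusted p under 0.05, 3 of the 9 genes stood out, Serping1 and Cfb on the higher side and C3 on the lower side, against 18.9% of all tested genes. DESeq2 called 1 of the 9, C3, where it called 4.25% of all genes, edgeR without a filter on low counts also called C3 alone, where it called 1.14%, and limma-voom called 0 of the 9 and 0.940% of all genes. The groups did not overlap in 1 of the 9 genes, again C3, against 13.1% of all tested genes. The fitted log2 fold change was below 0 in 7 genes and above 0 in 2, with a median of -0.24 beside 0.02 over all genes tested.

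**Figure D1:**
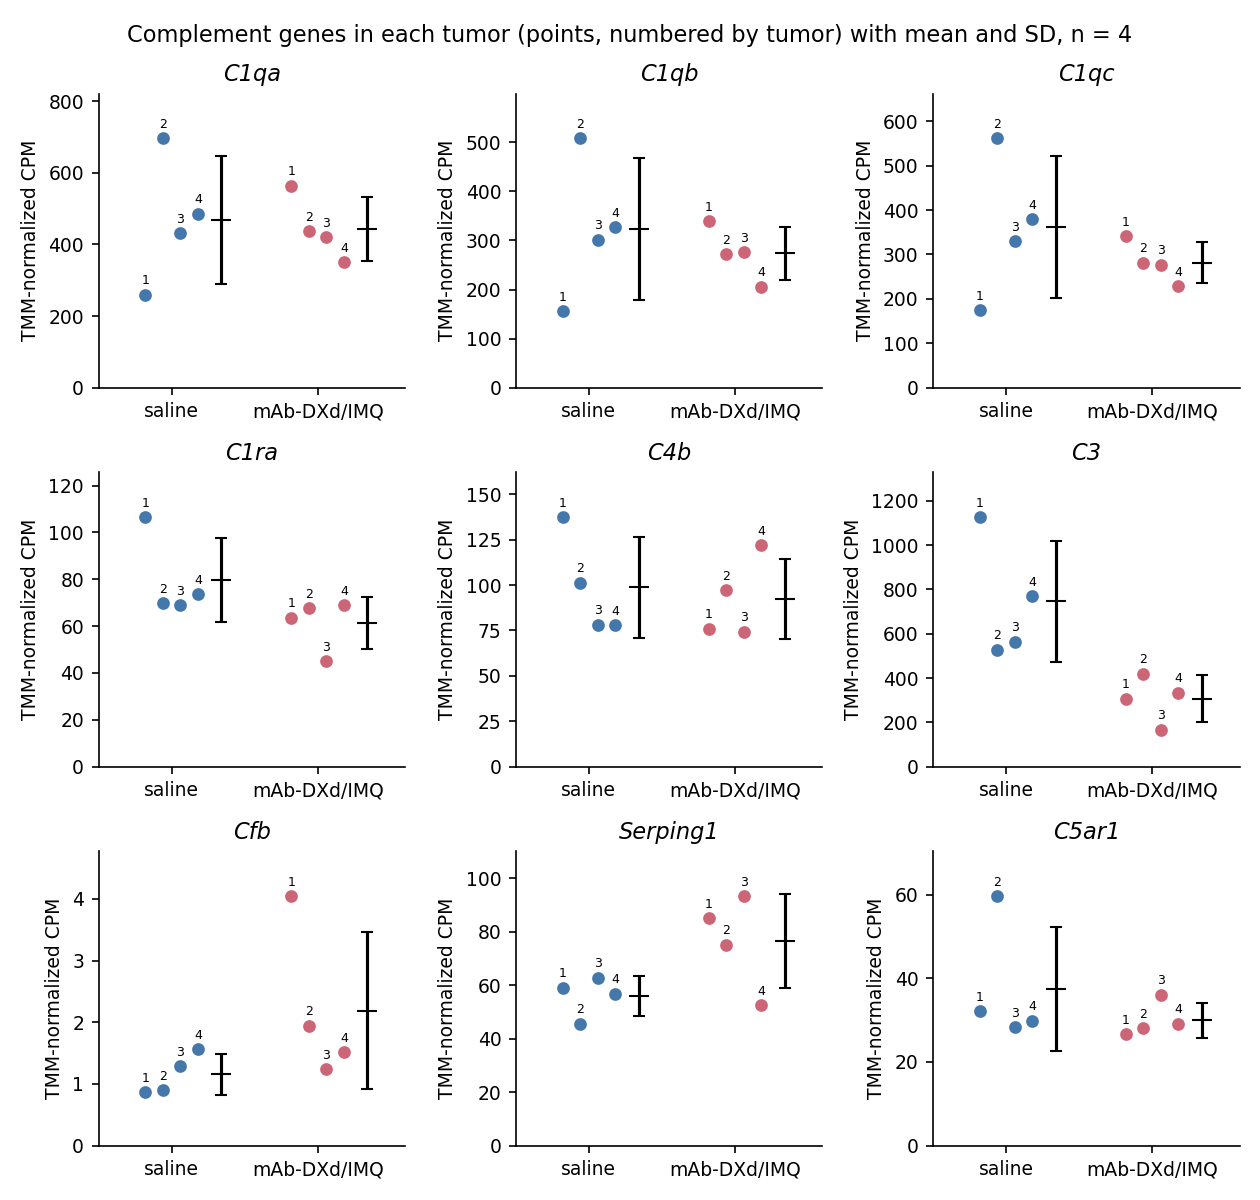
TMM-scaled CPM of the 9 complement genes (vertical axes, starting at 0) in the 4 saline and the 4 mAb-DXd/IMQ tumors; points are tumors, numbered as in the text, and bars are mean ± SD. The groups are separate for C3, with every mAb-DXd/IMQ tumor at or below 420.2 CPM and every saline tumor at or above 527 CPM, and overlap for the other 8 genes.

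C1qa, C1qb and C1qc encode the A, B and C chains that assemble into C1q, the recognition unit of the classical pathway. The genes (ENSMUSG00000036887, ENSMUSG00000036905 and ENSMUSG00000036896) lie side by side on the minus strand of chromosome 4, at chr4:136895917-136898803, chr4:136880129-136886187 and chr4:136889804-136893065 in coordinates that match GRCm38. The chains' levels moved together from tumor to tumor, and the upstream windows of C1qb and C1qc are shown for that reason. The sequences are RefSeq promoter windows of 300 bases on GRCm38.p6, which reach from 250 bases before the start site to 50 after it; entries were found for 5 of the 9 genes. They are written 5′ to 3′ on the gene's strand, from chr4:136886151-136886450 for C1qb and chr4:136892865-136893164 for C1qc, both minus. Capitals mark a match, on either strand, to the PU.1 motif GAGGAAGT, which 3.20% of 32851 promoter windows hold; PU.1 is a transcription factor of myeloid cells.
C1qb: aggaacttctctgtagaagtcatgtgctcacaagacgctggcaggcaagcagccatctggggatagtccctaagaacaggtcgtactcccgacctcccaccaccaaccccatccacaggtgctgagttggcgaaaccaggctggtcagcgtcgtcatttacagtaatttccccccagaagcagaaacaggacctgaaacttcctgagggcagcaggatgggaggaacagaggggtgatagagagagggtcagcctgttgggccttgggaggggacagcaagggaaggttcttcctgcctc
C1qc: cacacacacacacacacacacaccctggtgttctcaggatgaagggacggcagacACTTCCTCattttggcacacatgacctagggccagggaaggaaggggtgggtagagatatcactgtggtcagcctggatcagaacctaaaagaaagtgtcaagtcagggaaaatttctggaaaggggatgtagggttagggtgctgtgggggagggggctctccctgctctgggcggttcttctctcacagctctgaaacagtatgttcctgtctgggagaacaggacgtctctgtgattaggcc
The C1qc window held the PU.1 letters on the reverse strand, starting at position -195 from the start site, and the C1qb window held no match to them. The letters of a Maf half-site, TGCTGAC, found in 4.67% of promoter windows, were in none of the 5 windows searched. A match describes the sequence and shows no binding.

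C1qa was at 259, 696, 432 and 485 CPM in saline tumors 1 to 4 and at 564, 437, 420.2 and 349.8 CPM in mAb-DXd/IMQ tumors 1 to 4. The saline group held both the lowest and the highest tumor, so that it enclosed the whole mAb-DXd/IMQ group. C1qb was at 155, 508, 301 and 327 CPM in the saline tumors and at 339.7, 272, 276 and 206 CPM in the mAb-DXd/IMQ tumors. C1qc was at 174, 561, 330.0 and 379 CPM in the saline tumors and at 341, 281, 277 and 228 CPM in the mAb-DXd/IMQ tumors. All 3 chains shared the same extremes, with saline tumor 1 lowest and saline tumor 2 highest of the 8. The saline mean of C1qa was 468 ± 180.1 CPM and the mAb-DXd/IMQ mean 443 ± 89.2 CPM (SD, n = 4). Its log2 fold change was -0.08 ± 0.26 (SE; 95% interval -0.65 to 0.48) with an adjusted p of 0.904 by edgeR's quasi-likelihood test. For C1qb the log2 fold change was -0.24 ± 0.29 (adjusted p = 0.702) and for C1qc -0.36 ± 0.28 (adjusted p = 0.530). The direction for C1qa and C1qb rested on single tumors: without saline tumor 2 the log2 fold changes were 0.17 and 0.06, and without mAb-DXd/IMQ tumor 4 that of C1qa was 0.02. For C1qc it was -0.06 without saline tumor 2.

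After each group's mean was subtracted, log2 CPM of the chains correlated across the 8 tumors with Pearson r between 0.991 and 0.995, as a description of tumors that share processing. Among 10750 genes with a mean of at least 8 CPM, those most like the mean of the chains were Apoe (r = 0.997), Ntpcr (r = 0.995) and Lmo2 (r = 0.990), over the same 8 tumors. A search over so many genes in 8 tumors gives high r values also for unrelated genes, here and for the other members below. Apoe encodes the lipid carrier apolipoprotein E, which tumor macrophages also make. The proportions of the chains were then compared within each tumor, a comparison chosen after the values were seen, so that its p values support no finding. Exact two-sided permutation tests of the log2 ratio gave a p of 0.0286 for C1qc to C1qa, 0.143 for C1qb to C1qa and 0.0857 for C1qc to C1qb, and 0.0857, 0.143 and 0.129 when adjusted over the 3 ratios by the Benjamini-Hochberg method. The smallest p that 4 against 4 tumors allow is 0.0286. The ratio of C1qc to C1qa counts was 0.671, 0.806, 0.764 and 0.781 in saline tumors 1 to 4 and 0.605, 0.643, 0.659 and 0.652 in mAb-DXd/IMQ tumors 1 to 4. Every mAb-DXd/IMQ tumor was thus below every saline tumor, with a log2 difference of -0.24, although saline tumor 1 lay close to the treated range. The ratio of C1qb to C1qa overlapped between the groups, with 0.675 ± 0.0556 in saline and 0.618 ± 0.0303 in mAb-DXd/IMQ tumors (SD, n = 4). The ratio of C1qc to C1qb also overlapped, at 1.12 ± 0.0271 and 1.04 ± 0.0499.

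Since C1q is a macrophage product, the 8 macrophage markers Adgre1, Csf1r, Cd68, Mrc1, Mertk, Cd163, Fcgr1 and Ms4a7 were read beside it. Their summed level was 379, 1269, 654 and 798 CPM in saline tumors 1 to 4 and 522, 463, 580.0 and 401 CPM in mAb-DXd/IMQ tumors 1 to 4. Saline tumor 1 was again lowest and saline tumor 2 highest, as for the C1q chains, and the groups overlapped. In bulk tumors, fewer cells of a type and less RNA per cell cannot be told apart. All 8 markers had a log2 fold change below 0, with Cd68 crossing 0 under upper-quartile scaling, and 0 of them were at 0 counts; Csf1r was the most abundant. Of all tested genes edgeR called 1.06% and DESeq2 4.25%. Of the 8 markers, Cd163, a scavenger receptor, fell, by 1.17 ± 0.24 on the log2 scale with an adjusted p of 0.0450 in edgeR. Leaving out any of the 8 tumors ended that call, with adjusted p values from 0.0608 to 0.134, as did upper-quartile scaling (0.0540). DESeq2 called Cd163 and Mrc1, the mannose receptor, whose groups did not overlap, at 197 ± 114 CPM in saline and 76.5 ± 4.51 CPM in mAb-DXd/IMQ tumors (SD, n = 4), with a log2 fold change of -1.37 ± 0.31 and an adjusted p of 0.0574 in edgeR. The summed C1q chains stood at 1.55, 1.39, 1.63 and 1.49 times the marker sum in the saline tumors and at 2.39, 2.14, 1.68 and 1.95 times in the mAb-DXd/IMQ tumors. By that ratio, also chosen after the values were seen and not tested, each mAb-DXd/IMQ tumor lay above each saline tumor. That separation depended on Mrc1: with Mrc1 left out of the sum the ratio was 1.94 to 2.14 in saline and 1.92 to 2.79 in mAb-DXd/IMQ tumors, which overlap, while it was kept with any 1 of the other 7 markers left out. Relative to single markers, the C1q sum separated the groups for Mrc1 and overlapped for the other 7; it was 4.33 ± 0.839 and 5.84 ± 0.980 times Csf1r in saline and mAb-DXd/IMQ tumors (SD, n = 4), and 11.4 to 19.2 and 12.3 to 19.5 times Cd68. The part of macrophage content in the C1q levels was not tested.

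**Figure D2:**
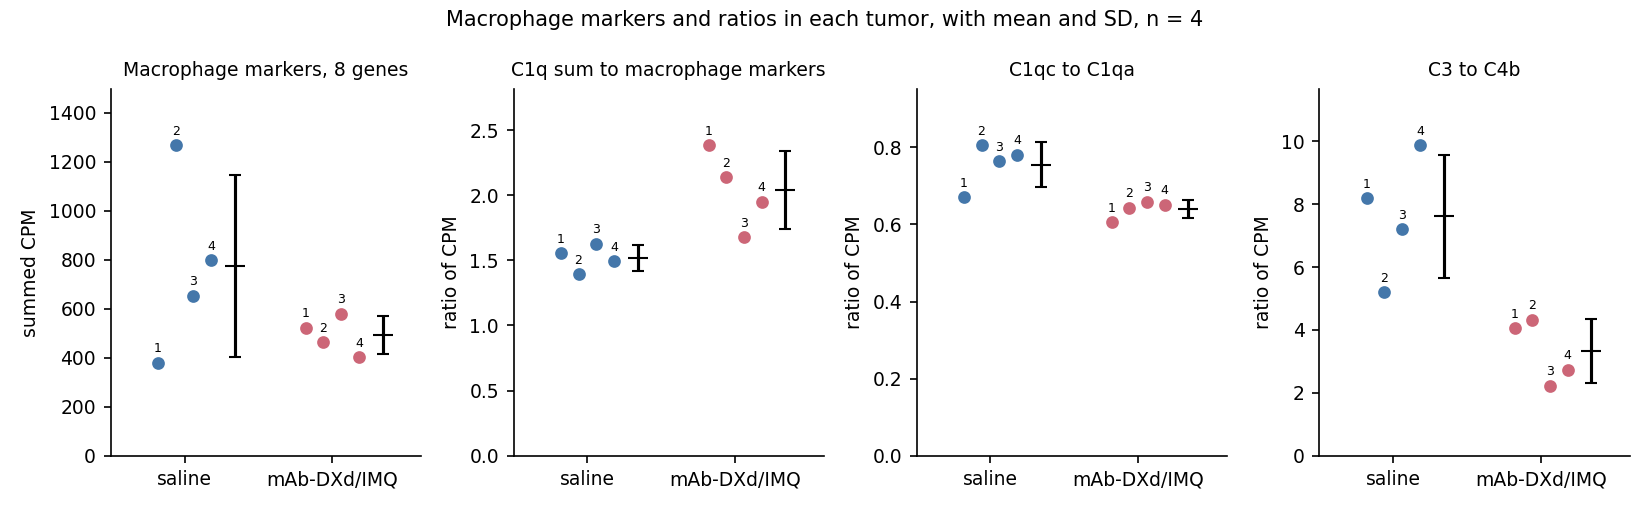
Summed CPM of the 8 macrophage markers and, as ratios of CPM, the C1q sum to these markers, C1qc to C1qa and C3 to C4b (vertical axes, starting at 0) in each saline and mAb-DXd/IMQ tumor; points are numbered tumors and bars mean ± SD. The marker sums overlap between groups, while each of the 3 ratios separates them, the first of them not with Mrc1 left out of the markers: C1q to markers at 1.39 to 1.63 against 1.68 to 2.39, C1qc to C1qa at 0.671 to 0.806 against 0.605 to 0.659, and C3 to C4b at 5.20 to 9.89 against 2.23 to 4.32.

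C1ra (ENSMUSG00000055172, chr6:124512405-124523443, plus strand) encodes the protease C1r, which C1q binding activates. Its level was 106, 69.7, 68.9 and 73.6 CPM in saline tumors 1 to 4 and 63.6, 67.7, 45.0 and 68.9 CPM in mAb-DXd/IMQ tumors 1 to 4. Saline tumor 1 was far above the other saline tumors, mAb-DXd/IMQ tumor 3 was lowest, and the remaining 6 tumors lay close together with the groups touching. The log2 fold change was -0.38 ± 0.18 (95% interval -0.76 to 0.01), with an unadjusted p of 0.0541 and an adjusted p of 0.273 in edgeR. A share of 34.5% of its 100-base windows also occurs in its paralog C1rb, so that counts could be split between them; C1rb itself averaged 7.45 CPM. C1s1, for the partner protease C1s, was at 109 ± 64.6 CPM in saline and 60.7 ± 19.0 CPM in mAb-DXd/IMQ tumors (SD, n = 4), with a log2 fold change of -0.85 ± 0.35 and an adjusted p of 0.225. Its highest tumor was again saline tumor 1, at 203 CPM, without which the log2 fold change was -0.37.

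C4b (ENSMUSG00000073418, chr17:34728380-34743882, minus strand) encodes complement C4, the first substrate of C1s. It was at 137, 101, 78.2 and 77.9 CPM in the saline tumors and at 76.0, 97.3, 74.3 and 122 CPM in the mAb-DXd/IMQ tumors. High and low tumors occurred in both groups, which overlapped almost entirely. The log2 fold change was -0.10 ± 0.21 (adjusted p = 0.849) and became 0.10 without saline tumor 1. Its paralog C4a shares 16.5% of the 100-base windows of C4b and averaged 5.40 CPM.

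C3 (ENSMUSG00000024164, chr17:57203970-57228136, minus strand) encodes the component on which all activation routes converge. Its window, with that of C1ra, is shown because the 2 genes varied together within groups (r = 0.943 over the 8 tumors after each group's mean was subtracted). The windows are chr6:124512371-124512670 on the plus strand for C1ra and chr17:57228087-57228386 on the minus strand for C3, again 300 bases from RefSeq on GRCm38.p6. Capitals mark matches on either strand to the C/EBP motif TTGCNNAA, present in 10.8% of promoter windows, and to the GAS motif TTCNNNGAA, present in 8.30%; the factors that bind these letters act in acute-phase and interferon responses.
C1ra: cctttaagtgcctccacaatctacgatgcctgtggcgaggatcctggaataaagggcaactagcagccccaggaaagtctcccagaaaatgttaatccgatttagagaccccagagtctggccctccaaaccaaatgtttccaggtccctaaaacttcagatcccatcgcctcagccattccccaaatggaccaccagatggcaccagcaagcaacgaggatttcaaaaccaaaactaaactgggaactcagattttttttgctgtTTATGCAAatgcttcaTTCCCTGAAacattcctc
C3: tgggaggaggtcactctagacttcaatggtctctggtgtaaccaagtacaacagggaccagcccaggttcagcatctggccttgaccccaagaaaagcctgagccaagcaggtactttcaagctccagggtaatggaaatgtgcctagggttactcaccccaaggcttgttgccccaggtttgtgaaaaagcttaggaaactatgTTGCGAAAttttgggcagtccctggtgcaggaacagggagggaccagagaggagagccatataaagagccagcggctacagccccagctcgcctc
The C1ra window held the C/EBP letters at position 16 and the GAS letters at position 32 after the start site, and the C3 window held the C/EBP letters at position -45. C1qb, C1qc and C5ar1 held neither motif.

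C3 stood at 1125, 527, 564 and 770.1 CPM in saline tumors 1 to 4 and at 308, 420.2, 166 and 333 CPM in mAb-DXd/IMQ tumors 1 to 4. Each mAb-DXd/IMQ tumor was below each saline tumor, and saline tumor 1 was highest and mAb-DXd/IMQ tumor 3 lowest, as for C1ra. The group means were 747 ± 274 and 307 ± 106 CPM (SD, n = 4), a 2.43-fold lower fitted level in mAb-DXd/IMQ tumors with a log2 fold change of -1.28 ± 0.30 (95% interval -1.94 to -0.63). The unadjusted p was 0.00124 and the adjusted p 0.0591 in edgeR, which missed the threshold. DESeq2 gave an adjusted p of 0.000576 and edgeR without the filter on low counts 0.0186; over all 20 alternatives the adjusted p ran from 0.000576 to 0.162 and the log2 fold change from -1.47 to -1.02. C3 was therefore lower in 4 of 4 mAb-DXd/IMQ tumors, with a call that depended on the tool and the filter. Relative to C4b, which acts before it in the classical pathway, C3 counts were 8.19, 5.20, 7.21 and 9.89 times as high in the saline tumors and 4.05, 4.32, 2.23 and 2.73 times in the mAb-DXd/IMQ tumors, a ratio chosen after the values were seen and not tested. The genes most like C3 within groups were Mfn1 (r = 0.992), Eml2 (r = 0.989) and Tbc1d32 (r = 0.980), and those most like C1ra were Npdc1 (r = 0.973), Ackr3 (r = 0.968) and Lgals3 (r = 0.968), over 8 tumors.

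Neutrophil markers were read beside C3. The 6 markers S100a8, S100a9, Csf3r, Cxcr2, Ly6g and Retnlg summed to 225, 84.9, 92.4 and 125 CPM in saline tumors 1 to 4 and to 33.0, 49.4, 51.4 and 67.1 CPM in mAb-DXd/IMQ tumors 1 to 4. As for C3, every mAb-DXd/IMQ tumor was below every saline tumor and saline tumor 1 was highest. Single genes did not overlap between groups in 13.1% of all tested genes. The saline tumors had the same order for C3 and for the marker sum, but the mAb-DXd/IMQ tumors did not. There tumor 3 was lowest for C3 and tumor 1 for the markers, and tumor 2 was highest for C3 and tumor 4 for the markers. Of the 5 tested markers, all were lower, DESeq2 called 3 (S100a8, S100a9 and Csf3r), and edgeR called 1: Csf3r, the receptor of granulocyte colony-stimulating factor, fell, by 0.80 ± 0.16 on the log2 scale (adjusted p = 0.0402). That call was kept without mAb-DXd/IMQ tumor 1 (adjusted p = 0.0427) and lost without any of the other 7 tumors, with adjusted p values up to 0.134; it was also lost with upper-quartile scaling (0.0501) and total counts (0.0601). S100a9 was the most abundant, and Ly6g, the marker most restricted to neutrophils, was near 0 and not tested, at 0.122 ± 0.167 CPM in saline and 0.172 ± 0.279 CPM in mAb-DXd/IMQ tumors (SD, n = 4). Hepatocyte markers, given above, were near 0 in both groups. The fibroblast markers, led by Col1a1, summed to 4096 ± 1633 CPM in saline and 4097 ± 1659 CPM in mAb-DXd/IMQ tumors (SD, n = 4). Of these 7, 0 were called by edgeR, 2 had an unadjusted p under 0.05 and 1, Fap, was called by DESeq2. Beside both marker lists, edgeR called 1.06% and DESeq2 4.25% of all tested genes, and 18.9% had an unadjusted p under 0.05 in edgeR. The part of any of these cell types in the C3 level was not tested.

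Cfb (ENSMUSG00000090231, chr17:34856374-34862518, minus strand) encodes factor B, which forms the alternative pathway convertase with C3b. It was the least abundant member, at 0.871, 0.902, 1.29 and 1.56 CPM in the saline tumors and at 4.04, 1.95, 1.24 and 1.52 CPM in the mAb-DXd/IMQ tumors, with 660 counts in all. The groups overlapped, and mAb-DXd/IMQ tumor 1 alone was above 2 CPM. The log2 fold change was 0.92 ± 0.40 (95% interval 0.03 to 1.80), with an unadjusted p of 0.0443 and an adjusted p of 0.250 in edgeR; without mAb-DXd/IMQ tumor 1 it was 0.43. The read-through gene Gm20547 on the same strand shares 79.5% of the exonic bases of Cfb and 42.8% of those of C2, and was itself at 0 counts. C2, the classical counterpart of Cfb, did not overlap between groups, at 2.73 ± 0.648 CPM in saline and 4.17 ± 0.494 CPM in mAb-DXd/IMQ tumors (adjusted p = 0.206). The other genes of the alternative pathway, Cfp for properdin and Cfd for factor D, had log2 fold changes of 0.11 ± 0.17 and -0.58 ± 0.81.

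Serping1 (ENSMUSG00000023224, chr2:84765387-84775444, minus strand) encodes C1 inhibitor, the serpin that inactivates C1r and C1s. Its level was 59.0, 45.6, 62.8 and 56.9 CPM in saline tumors 1 to 4 and 85.0, 75.2, 93.2 and 52.5 CPM in mAb-DXd/IMQ tumors 1 to 4. In 3 of 4 mAb-DXd/IMQ tumors it was above every saline tumor, while mAb-DXd/IMQ tumor 4 lay inside the saline range. The log2 fold change was 0.45 ± 0.17 (95% interval 0.07 to 0.83), with an unadjusted p of 0.0241 and an adjusted p of 0.194 in edgeR. The interferon-inducible genes, a list read beside Serping1 because interferon induces it, had 5 of 11 genes higher and 6 lower. With upper-quartile scaling 6 were higher and 5 lower. Of the 11, 0 were called by edgeR or DESeq2, and 1, on the lower side, had an unadjusted p under 0.05 in edgeR, beside 18.9% of all tested genes. The genes most like Serping1 within groups were Ppp4r1 (r = 0.980), Eaf1 (r = 0.975) and Bcat1 (r = 0.968), over 8 tumors.

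C5ar1 (ENSMUSG00000049130, chr7:16246743-16259540, minus strand) encodes the main receptor of the anaphylatoxin C5a, carried by neutrophils and macrophages. It was at 32.1, 59.6, 28.2 and 29.8 CPM in the saline tumors and at 26.7, 28.0, 36.1 and 29.1 CPM in the mAb-DXd/IMQ tumors. Saline tumor 2, which also had the most C1q, was far above the other 7 tumors, which lay between 26.7 and 36.1 CPM in both groups. The log2 fold change was -0.32 ± 0.23 (adjusted p = 0.480) and was near 0 without saline tumor 2, at -0.0054. Among other receptors, C3ar1, for C3a, showed a log2 fold change of -0.13 ± 0.28 (adjusted p = 0.852). Within groups the genes most like C5ar1 were Gda (r = 0.979) and Slc41a2 (r = 0.976), those most like C4b were Nrm (r = 0.968), Itpr1 (r = 0.968) and Whamm (r = 0.959), and those most like Cfb were Crot (r = 0.993), Morf4l1 (r = 0.988) and Mob4 (r = 0.988), over 8 tumors. Cfb spread within groups mostly through mAb-DXd/IMQ tumor 1, at 4.04 CPM beside 1.24 to 1.95 CPM in the other mAb-DXd/IMQ tumors.

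**Figure D3:**
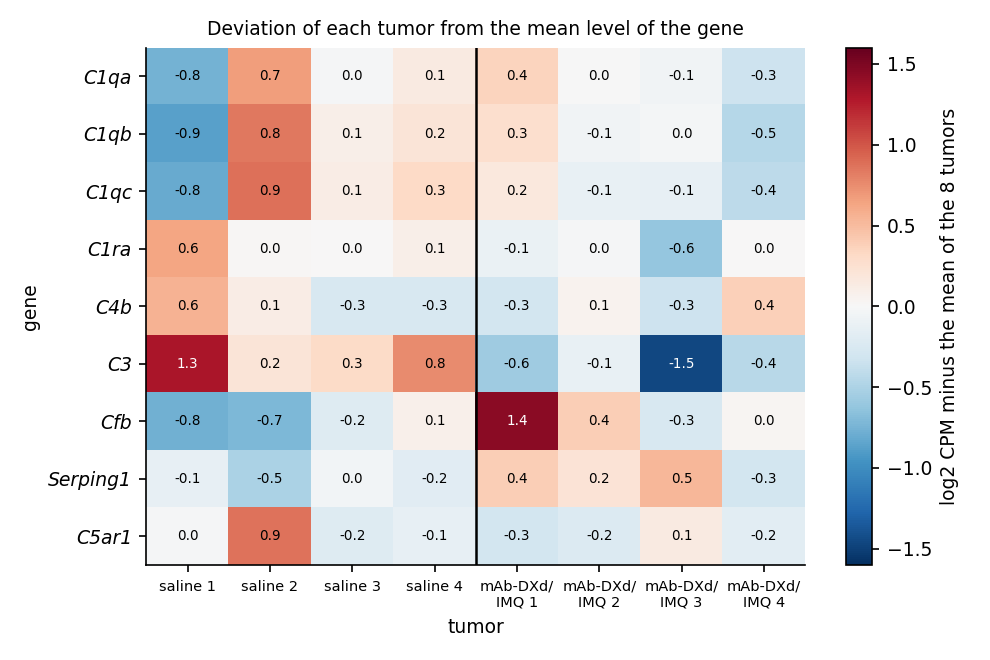
Log2 CPM of the 9 complement genes (rows) in each of the 8 tumors (columns; saline left of the line) minus the gene's mean over the 8 tumors, as color and number. Saline tumor 1 is low for the C1q chains and high for C1ra, C4b and C3, and saline tumor 2 is high for the C1q chains and C5ar1.

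Within groups, saline tumor 1 had the lowest C1q chains and the highest C1ra, C4b and C3, and saline tumor 2 had the highest C1q chains and C5ar1. Marker sums shared these 2 tumors as extremes of the 8. Saline tumor 1 was highest and saline tumor 2 lowest for skeletal muscle markers (393 and 37.8 CPM) and interferon-inducible genes (3841 and 1839 CPM), and the reverse held for macrophage markers, given above, and endothelial markers (77.5 and 191 CPM). Saline tumor 1 was also highest for neutrophil markers, given above, and lowest for fibroblast markers (2359 CPM), and saline tumor 2 lowest for epithelial (1681 CPM) and epidermal markers (32.3 CPM) and highest for T cell markers (79.8 CPM). The part of these cell types and genes in the member levels was not tested. After group means were subtracted, C1ra and C3 correlated at r = 0.943 over the 8 tumors and at r = 0.928 over the 7 tumors other than saline tumor 1, C1ra and C4b at r = 0.779 and r = 0.579, and C3 and C4b at r = 0.616 and r = 0.377. The C1q chains correlated with C1ra, C3 and C4b at r between -0.654 and -0.505 over the 8 tumors, and at r between -0.234 and -0.0392 without saline tumor 1. Without saline tumors 1 and 2, over 6 tumors, the chains correlated with C4b at r between -0.816 and -0.686 and with C1ra and C3 at r between -0.254 and 0.0797, so that these values depended on which tumors were left out. With C5ar1 the chains correlated at r between 0.490 and 0.520 over the 8 tumors and between 0.561 and 0.674 without saline tumor 1. Without saline tumors 1 and 2 these values were between -0.318 and -0.227. Together the 9 genes held 0.215 ± 0.0287% of all counts in saline and 0.158 ± 0.0142% in mAb-DXd/IMQ tumors (SD, n = 4). C3 alone made up 163078 of their 469955 counts in saline and 54020 of 279414 in mAb-DXd/IMQ tumors, so that the lower share of the 9 genes depended much on C3.

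The cascade around the members was read from lists of 53 complement genes, of which 40 could be tested and 4 (Mbl1, Fcnb, C8b and C4bp) had 0 counts in all tumors. Past both thresholds were 2 genes, both higher, and 0 lower by edgeR, beside 1.06% of all tested genes; at an unadjusted p under 0.05 there were 7 higher and 5 lower, beside 18.9%, and DESeq2 called 6 genes, beside 4.25%. The median log2 fold change was -0.09, beside 0.02 over all genes tested, and 6 of 40 genes did not overlap between groups, beside 13.1% of all tested genes. Cd55, for decay-accelerating factor, which dismantles convertases on the cell's own surface, rose. It was at 1.76, 0.880, 1.47 and 1.74 CPM in saline tumors 1 to 4 and at 4.52, 4.17, 5.43 and 6.26 CPM in mAb-DXd/IMQ tumors 1 to 4. Every mAb-DXd/IMQ tumor was above every saline tumor, at a low level in both groups, with a log2 fold change of 1.79 ± 0.28 and an adjusted p of 0.0201 in edgeR. The call was lost without saline tumor 3 (adjusted p = 0.0692), saline tumor 4 (0.0846) or mAb-DXd/IMQ tumor 4 (0.0694). Clu, for clusterin, a chaperone that blocks the terminal complex, rose from 379 ± 53.8 to 653 ± 98.9 CPM (SD, n = 4), with no overlap, a log2 fold change of 0.79 ± 0.15 and an adjusted p of 0.0345. Leaving out any of the 8 tumors ended that call, with adjusted p values from 0.0520 to 0.106 and log2 fold changes from 0.69 to 0.89.

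By role, the classical pathway had 2 of 10 tested genes higher and 8 lower, with 0 called by edgeR or DESeq2 and 3 at an unadjusted p under 0.05. Of all tested genes, beside which each of these lists stands, edgeR called 1.06% and DESeq2 4.25%, and 18.9% had an unadjusted p under 0.05 in edgeR. The lectin pathway had 3 of 4 tested genes higher and 1 lower, with 0 called by either tool and 0 at an unadjusted p under 0.05. In the lectin pathway the most abundant tested genes were Colec12, at a log2 fold change of 0.24 ± 0.25, and Masp1, at -0.09 ± 0.27, a scavenger receptor and a protease. Of the terminal pathway, 4 of 7 genes were tested, 1 higher and 3 lower, with 0 called by edgeR, 2 at an unadjusted p under 0.05 and 2, C6 and C7, called by DESeq2. C6, a part of the membrane attack complex, was at 4.25, 45.7, 18.8 and 18.4 CPM in the saline tumors and at 4.27, 3.66, 5.41 and 1.99 CPM in the mAb-DXd/IMQ tumors, so that saline tumor 1 lay among the treated tumors. Its log2 fold change was -2.50 ± 0.57 with an adjusted p of 0.0562 in edgeR. Without saline tumor 1 it was -2.84 with an adjusted p of 0.0157, and without saline tumor 2 it was -1.85 with an adjusted p of 0.0998. Of the 8 edgeR fits that left out 1 tumor, only that without saline tumor 1 passed the threshold, with adjusted p values up to 0.149. Among soluble regulators 4 of 8 were tested, 2 higher and 2 lower, with Clu called and 3 at an unadjusted p under 0.05. Among membrane regulators 5 of 6 were tested, 3 higher and 2 lower, with Cd55 called; Cr1l, the mouse regulator Crry, was the most abundant, at -0.08 ± 0.12. Of the 9 receptor genes, 4 were higher and 5 lower, with 0 called by edgeR, 1 at an unadjusted p under 0.05 and 1, Vsig4, called by DESeq2. The most abundant, Itgb2, the shared chain of complement receptors 3 and 4, showed a log2 fold change of -0.18 ± 0.14. Vsig4, a macrophage receptor for C3b, and C7 were chosen after their values were seen because their groups did not overlap: Vsig4 was at 0.318 ± 0.362 and 1.66 ± 0.143 CPM (adjusted p = 0.111) and C7 at 0.138 ± 0.0974 and 0.677 ± 0.331 CPM (adjusted p = 0.127), both near the floor in some saline tumors.

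**Figure D4:**
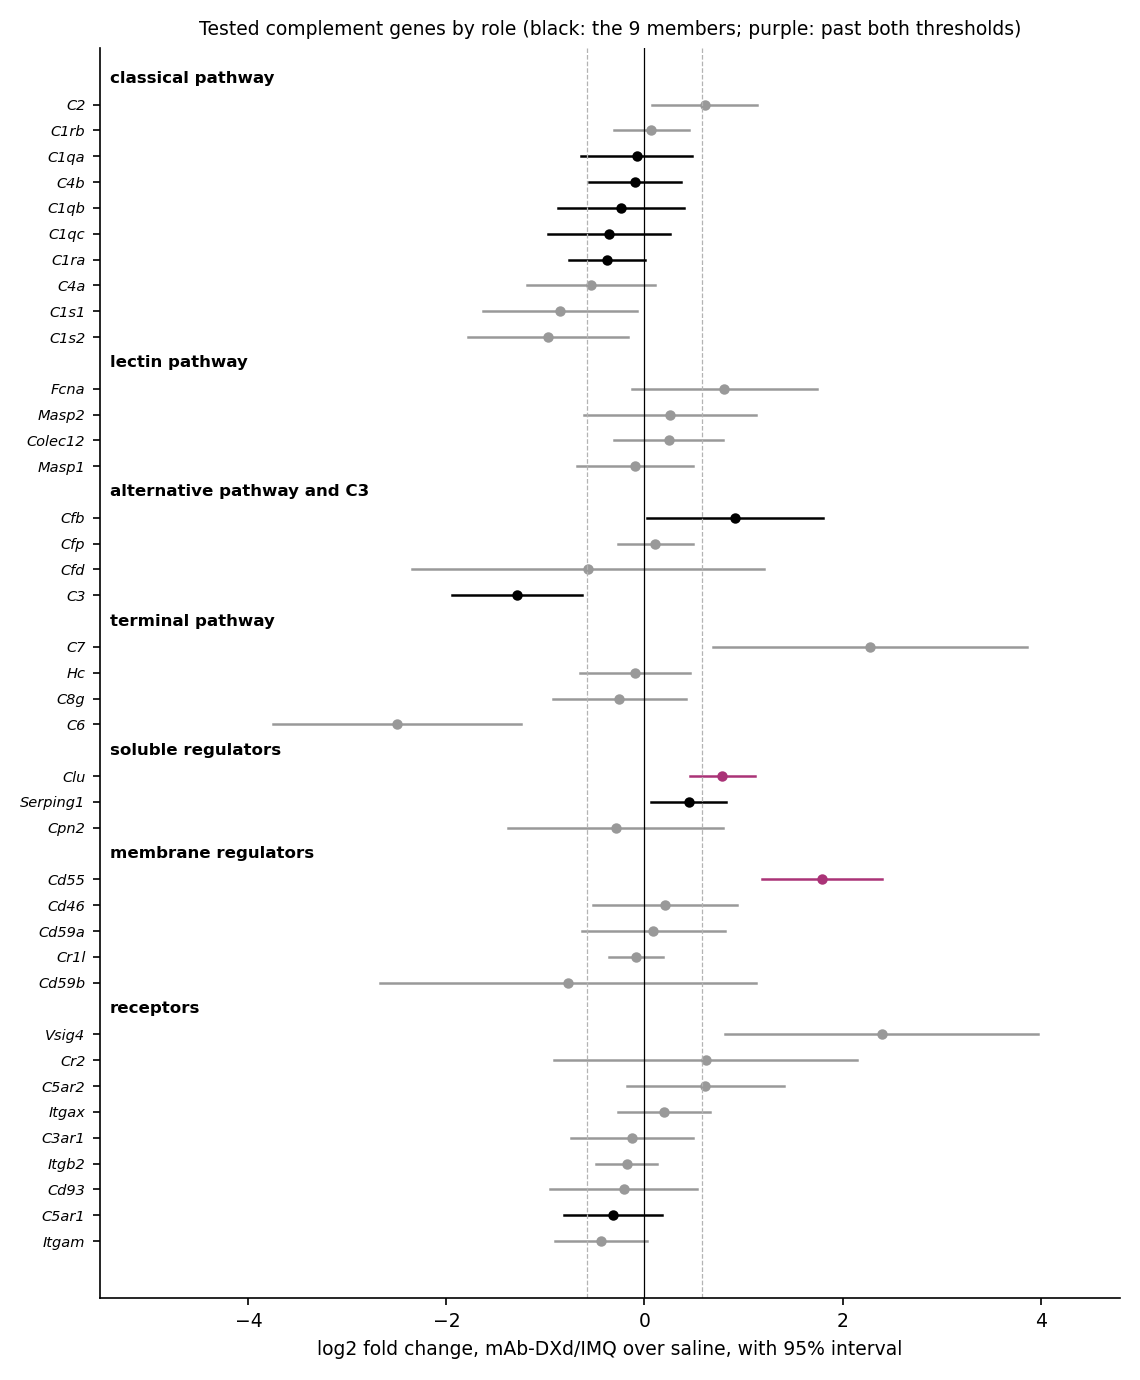
Log2 fold change (horizontal axis) of 39 of the 40 tested complement genes with 95% intervals from edgeR, by role; black marks the 9 members, purple the 2 genes past both thresholds, and dashed lines the fold change limit of 0.58. Cd55 and Clu lie on the higher side, and C3 has its interval below 0 without passing the adjusted threshold.

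Other cell type markers were read beside the complement genes. T cell markers had 5 of 5 genes lower, 2 called by edgeR (Cd4 and Cd8a) and 4 by DESeq2 (Cd3d, Cd3e, Cd4 and Cd8a), and summed to 69.3 ± 12.6 CPM in saline and 32.4 ± 8.02 CPM in mAb-DXd/IMQ tumors (SD, n = 4), led by Cd8a. Cd4 fell by 1.91 ± 0.25 and Cd8a by 1.22 ± 0.17 on the log2 scale, each with an adjusted p of 0.0201 in edgeR. Both calls were lost without saline tumor 3 (adjusted p = 0.0657), saline tumor 4 (0.0846) or mAb-DXd/IMQ tumor 4 (0.0694). Endothelial markers, led by Pecam1, had 5 of 5 higher, with 0 called by edgeR, 1 at an unadjusted p under 0.05 and 1, Emcn, called by DESeq2. Epithelial markers, led by Krt18, had 5 of 5 higher, with Krt8 and Cdh1 near 0 at log2 fold changes of 0.0083 ± 0.17 and 0.024 ± 0.25. Adipocyte markers, led by Fabp4, had 4 of 4 tested genes lower, with Fabp4 at a log2 fold change of -0.08 ± 0.24. Adipoq, Plin1 and Cidec averaged 0.598, 0.211 and 0.527 CPM, each at 0 in saline tumor 2. Skeletal muscle markers, led by Acta1, had 1 of 5 higher and 4 lower, and epidermal markers, led by Krt14, 3 of 3 tested genes higher. For Krt5 and Krt10 mAb-DXd/IMQ tumor 2 stood far above the rest, at 112 and 28.9 CPM. The other mAb-DXd/IMQ tumors were at 0.206 to 1.05 and 5.52 to 8.31 CPM, and saline tumors at 0 to 22.1 and 6.13 to 7.93 CPM. In the epithelial, adipocyte, skeletal muscle and epidermal lists 0 genes were called by edgeR or DESeq2 and 0 had an unadjusted p under 0.05. Of all tested genes edgeR called 1.06% and DESeq2 4.25%, and 18.9% had an unadjusted p under 0.05 in edgeR. The part of these cell types in the complement levels was not tested.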

How the data were processed

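Gene-level raw read counts were deposited by the authors as a single table for 8 tumors (poly-A RNA, Illumina sequencing). The submitters' processing notes list HISAT2, HISAT, TopHat2 and the build mm39 with no version. The table's coordinates, however, equal those of GENCODE M21 on GRCm38 in 98.3% of 54409 shared genes. The counting program and its use of strand are not given in the sources used here, so that overlapping genes and paralogs can share counts. Groups follow the sample titles, which name the control saline; another label names it PBS. Gene length came from the table and GC content from the GENCODE transcripts.

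Counts were fitted with edgeR 4.0.16 in R 4.3.3 (filterByExpr with a minimum count of 10 and total of 15, TMM scaling, quasi-likelihood F-test), without covariates, in all 8 tumors. P values were adjusted by the Benjamini-Hochberg method over 18511 genes, and calls needed an adjusted p under 0.05 with a log2 fold change beyond ±0.58. Standard errors were derived from the F statistic. Alternatives were DESeq2 1.42.0, limma-voom 3.58.1, other scalings and filters, robust estimation, no fold change limit, a replicate block, a correction for length and GC content by splines with 5 degrees of freedom, and leaving out each tumor. The pipeline was tested on simulated data, with no outcome reported here. Correlations used log2 CPM with a prior count of 2 and carry no p. Among all 28 pairs of libraries, none had identical or near-identical counts.

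Genes were named by rule: the members, for each complement list its most abundant tested genes and those past the thresholds, for each marker list its most abundant gene and any at 0 counts, and for each member the 3 genes most like it. Other genes were named after their values were seen: marker genes called by edgeR or DESeq2, Cd68, Ly6g, the paralogs and partners of members, and C2, C6, C7, Vsig4, C3ar1, Cfp and Cfd. So were Krt5, Krt8, Krt10, Cdh1, Adipoq, Plin1 and Cidec. The marker lists were macrophage, neutrophil, fibroblast, epithelial, endothelial, hepatocyte, adipocyte, skeletal muscle, epidermis and T cell, with a list of interferon-inducible genes. Members and lists were chosen with earlier results of these data known. Promoter windows came from RefSeq (GRCm38.p6). Python 3.11.15 and matplotlib 3.10.9 were used for tables and plots. Some genes, 1 of them a tested complement gene left out of the figure by role, are not reported here.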

Additional observations from a re-analysis of the deposited data

Results flagged for a closer look

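In 5 of the 68 groups of 4 tumors that were checked, 1 tumor stood far from the other 3. This was measured as its gap to the nearest tumor divided by the range of the group, and chance alone gives about 3.4 such groups. The check did not cover every tested complement gene, and others may stand as far apart. For C1ra in the saline group the share was 0.874, with saline tumor 1 at 106 CPM and the others at 68.9 to 73.6 CPM. For C5ar1 in the saline group it was 0.877, with saline tumor 2 at 59.6 CPM and the others at 28.2 to 32.1 CPM. For Itgb2 in the saline group it was 0.836, with saline tumor 2 at 175 CPM and the others at 115 to 125 CPM. For Cfp in the mAb-DXd/IMQ group it was 0.985, with tumor 1 at 82.8 CPM and the others at 63.7 to 64.0 CPM. For the hepatocyte marker sum in the saline group it was 0.871, with saline tumor 4 at 0.599 CPM and the others at 0.158 to 0.215 CPM.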

How the results depend on the processing

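Of the 9 members, C1qc, C1ra, C3, Cfb, Serping1 and C5ar1 kept the sign of their log2 fold change in all 20 alternatives. C1qc ranged from -0.59 to -0.06. C1qa, C1qb and C4b changed sign only among the fits that left out 1 tumor, where they ranged from -0.28 to 0.17, from -0.47 to 0.063 and from -0.25 to 0.10. The number of members past the thresholds, 0 in edgeR, was 1 (C3) without the filter on low counts and 1 (C3) with DESeq2. The number of wider complement genes, 2, was 4 without the filter, 6 with DESeq2, and 0 to 2 when 1 tumor was left out. The number of all genes past the thresholds, 197, was 358 without the filter, 787 with DESeq2, and 10 to 203 when 1 tumor was left out, with fewer samples in each such fit. It was 111, 10 and 11 without saline tumors 2, 3 and 4 and 76, 88 and 12 without mAb-DXd/IMQ tumors 2, 3 and 4. The cause of the differences between tools and filters was not tested.

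With the replicate block, 14 genes passed in all and 0 of the complement genes; with the replicate block and the correction for length and GC content the counts were 13 and 0. Same-numbered tumors come from different mice, their deviations from the group means correlated at -0.170, -0.0546, 0.0794 and -0.0672, and 2 of 8 tumors correlated best with their own number, so the numbers were not taken as pairs. Cd55 was called in 15 and Clu in 10 of 20 alternatives, with log2 fold changes from 1.62 to 1.90 and from 0.69 to 0.89. Csf3r was called in 9 and Cd163 in 7 of 20, while their log2 fold changes ran from -0.87 to -0.68 and from -1.34 to -1.02. Upper-quartile scaling and total counts ended both calls (adjusted p of 0.0501 and 0.0601 for Csf3r, 0.0540 and 0.0572 for Cd163), as did the replicate block (0.117 and 0.111) and the block with the correction (0.118 and 0.123); the correction alone ended that of Cd163 (0.0575). Cd4 and Cd8a were each called in 15 of 20, with adjusted p values of 0.0695 and 0.0815 with the replicate block and 0.0714 and 0.0780 with the block and the correction. Their log2 fold changes ran from -2.09 to -1.77 and from -1.36 to -1.11 over the 20 alternatives. The log2 fold change correlated with gene length at a rho of -0.21 across genes, which are not independent replicates, and at -0.03 after the correction; no scaling moved the median of all genes above 0.07. With 4 tumors per group, intervals of single members were wide, and levels near 3 counts, as for C7 and Vsig4 in some saline tumors, are limited by depth.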
